A study of Mus musculus with 18 samples.

Results

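The genes described here are 9 mouse genes of the bone morphogenetic protein (BMP) system, chosen by name: the ligands Bmp2, Bmp4, Bmp6 and Bmp7, the related ligand Gdf15, and the secreted antagonists or follistatin-type proteins Grem1, Fst, Fstl1 and Fstl3. All 9 were among the 30583 genes of the deposited count table, and 8 of them passed the filter on low counts and were among the 16311 genes tested. Grem1 did not pass it. The choice used no measured value, but it was made with earlier results of these data known.

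RNA was sequenced from the left ventricular myocardium of 18 male C57BL/6JR mice aged 12 weeks, infarcted only in mice whose artery was tied. There were 6 groups of 3 mice, with 1 library per mouse. The left anterior descending coronary artery, which supplies the front wall of the left ventricle, was tied off in 5 groups, which were killed 10 min after the ligation or 1 h, 6 h, 24 h and, for the last group, 72 h after it. The sham group was operated on and had the suture passed without being tied; it stands for time 0. No genetic change is named in any group, all mice were anaesthetised with sodium pentobarbital, and isoflurane was given before they were killed. Sham mice are the only controls, so the later groups are not matched by a sham operation of their own time. The 5 comparisons with sham share its 3 libraries.

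BMPs are secreted dimers of the TGF-beta family that bring type I and type II receptor kinases together, after which the receptors phosphorylate Smad1, Smad5 and Smad9, and these enter the nucleus with Smad4 and switch on targets such as the Id genes. Smad6 and Smad7 damp the signal from inside the cell, and proteins such as gremlin and noggin hold the ligands outside it. Follistatin (Fst) and follistatin-like 3 (Fstl3) bind activins more tightly than BMPs, follistatin-like 1 (Fstl1) is a more distant relative secreted by stromal cells of the heart, and GDF15 is a circulating stress signal that acts through the receptor GFRAL in the hindbrain rather than through BMP receptors.

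The libraries held between 18.2 and 25.1 M (mega) counts, and 3 counts, taken as the detection floor, were worth 0.0913 to 0.187 CPM, that is, counts per M counts of the library. Levels are CPM after scaling by trimmed mean of M values (TMM), whose factors ranged from 0.825 to 1.43 and were highest at 72 h. The labels call the cells cardiomyocytes, and the 7 cardiomyocyte markers summed to 60048 to 64285 CPM in the sham libraries. In the same libraries 6 endothelial markers summed to 1215 to 1346 CPM and 6 fibroblast markers to 681 to 717 CPM, and no separation of cells is described. The first 6 h library held 827 counts of Myl7, 715 of Sln and 355 of Bmp10, all atrial genes, while the other two 6 h libraries held at most 1 count of each. That library and the third 24 h library also had the highest summed neutrophil markers of their groups. Single-gene calls against sham that were lost without one of them are marked as such.

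No member passed the threshold at 10 min or 1 h, and from 6 h on most did. A gene was called where edgeR's quasi-likelihood test gave a Benjamini-Hochberg adjusted p under 0.05 over all genes tested. At 10 min 0 of 8 members were called, against 0.0736% of all genes, although 3 members had an unadjusted p under 0.05. At 1 h 0 of 8 were called, against 0.294% of all genes, and none had an unadjusted p under 0.05. At 6 h 5 members rose and none fell, where 28.4% of all genes were called, 16.3% higher and 12.2% lower. At 24 h 5 rose and 2 fell, against 43.8% of all genes, 23.7% higher and 20.2% lower. At 72 h all 8 tested members were called, 5 higher and 3 lower, but 66.4% of all genes were called there too, 34.2% higher and 32.2% lower. The members' median log2 fold change was 1.29 at 6 h, 1.23 at 24 h and 2.28 at 72 h, beside -0.01, 0.01 and 0.03 over all genes tested. Bmp2, Gdf15, Fst and Fstl3 were called higher at all 3 later times, Fstl1 at 24 h and 72 h, and Bmp4 at 6 h only.

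**Figure D1:**
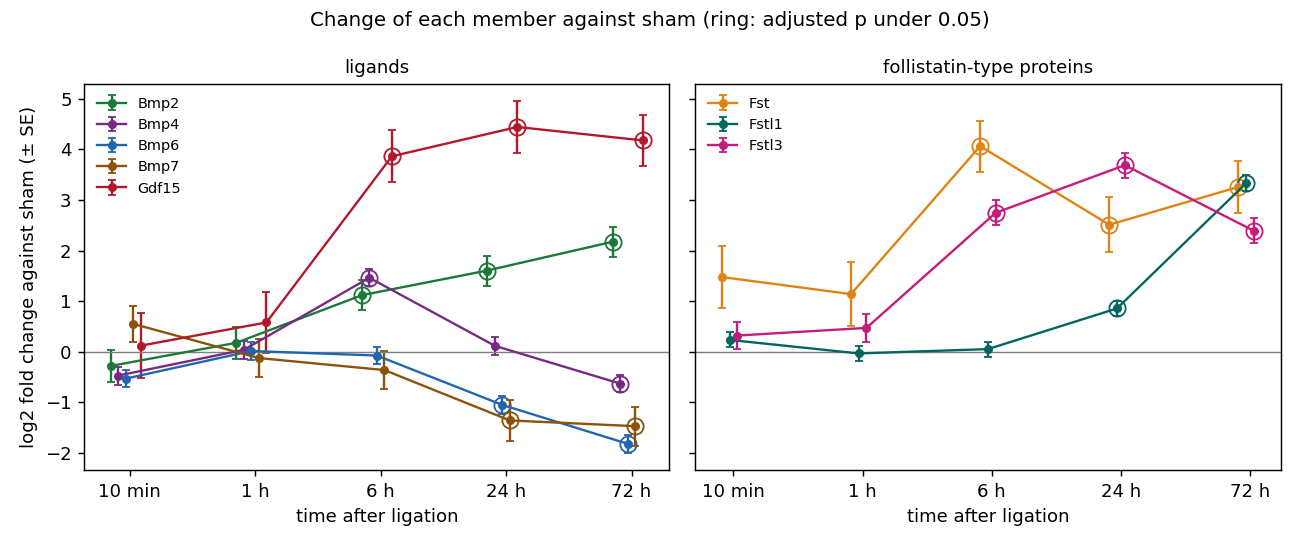
Log2 fold change against sham (vertical axis, error bars are the standard error of the fit) for each tested member at the 5 times after ligation (horizontal axis, not to scale in time), ligands on the left and follistatin-type proteins on the right, with rings around changes whose adjusted p was under 0.05. Gdf15 stayed between 3.87 and 4.45 from 6 h on, Bmp6 and Bmp7 went below 0, and Fstl1 left the zero line after 6 h and reached 3.33.

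Promoter sequence is shown for Bmp4, Gdf15 and Fstl3, which all rose at 6 h and for which the 250 bases before a RefSeq start site lie before the annotated gene, apart from the last 2 bases of the Fstl3 run, which are in its first exon. Each run is written 5′ to 3′ on the gene's own strand and ends at the base before the start site, with coordinates on GRCm38.p6: Bmp4 chr14:46390670-46390919 on the minus strand, Gdf15 chr8:70632457-70632706 on the minus strand and Fstl3 chr10:79777024-79777273 on the plus strand. Capitals mark the single match to a motif searched.
Bmp4: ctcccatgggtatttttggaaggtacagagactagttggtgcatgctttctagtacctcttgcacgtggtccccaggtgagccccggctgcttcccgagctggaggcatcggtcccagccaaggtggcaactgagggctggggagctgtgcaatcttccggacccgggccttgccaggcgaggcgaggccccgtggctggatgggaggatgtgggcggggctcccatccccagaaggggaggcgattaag
Gdf15: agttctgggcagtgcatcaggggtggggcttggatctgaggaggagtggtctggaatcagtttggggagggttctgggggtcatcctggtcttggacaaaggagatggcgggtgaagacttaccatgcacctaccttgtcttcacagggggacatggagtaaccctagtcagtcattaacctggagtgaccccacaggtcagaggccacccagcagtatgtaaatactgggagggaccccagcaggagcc
Fstl3: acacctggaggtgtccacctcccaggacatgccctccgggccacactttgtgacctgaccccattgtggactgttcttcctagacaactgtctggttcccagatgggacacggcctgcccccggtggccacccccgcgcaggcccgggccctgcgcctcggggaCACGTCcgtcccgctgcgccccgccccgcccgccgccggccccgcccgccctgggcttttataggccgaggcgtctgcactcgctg

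The base composition of the 3 runs differed, with 63.2% G and C in Bmp4, 56.4% in Gdf15 and 71.2% in Fstl3. Windows of 300 bases, 250 before to 50 after the RefSeq start, were searched on both strands for 6 motifs: AP-1 (TGANTCA), the cAMP response element CRE (TGACGTCA), the CEBP-ATF composite (TGATGNAA), the hypoxia element (GACGTG), a BMP response element (GGCGCC) and the palindromic Smad box (GTCTAGAC). The letters of CRE and the hypoxia element share the run GACGT, but neither holds the other. In Fstl3 the hypoxia element lay on the opposite strand, its first printed base 86 bases before the start, and 6.38% of the 32851 windows of all genes held it. None of the 6 strings of letters was in the Bmp4 window or in the windows of the Gdf15 RefSeq starts. Other forms of these motifs were not searched. AP-1 was found in 7.81% of all windows, CRE in 1.79%, the CEBP-ATF composite in 3.97% and the Smad box in 0.213%. The BMP response element was found in 11.9% of windows, and among the members in that of Grem1 alone. Windows were at hand for 6 of the 9 members and not for Bmp2, Bmp7 and Fst. These are matches of letters and were not tested as binding sites.

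Bmp2 (chromosome 2, 133552159 to 133562885, plus strand, GRCm38) encodes a BMP that drives bone formation and, in the embryo, the heart valves. Its level was 2.07, 2.49 and 2.09 CPM in the 3 sham libraries, 6.02, 4.45 and 3.99 at 6 h, 5.18, 4.07 and 11.2 at 24 h, and 9.12, 12.3 and 8.62 at 72 h. All 9 libraries from 6 h on lay above all sham libraries. The 24 h libraries were spread most, with the third more than the 72 h mean of 10.0 ± 2.0 CPM (SD, n = 3). Against sham Bmp2 rose 2.17-fold at 6 h (log2 1.12, SE 0.30, adjusted p = 0.0101), 3.04-fold at 24 h (log2 1.61, SE 0.30, adjusted p = 3.71e-04) and 4.52-fold at 72 h (log2 2.17, SE 0.29, adjusted p = 3.13e-06). The 6 h call was lost without the first 6 h library (log2 0.93, adjusted p = 0.0576) and with limma on log2(FPKM + 1) (adjusted p = 0.0702). The step from 24 h to 72 h did not pass (log2 0.57, adjusted p = 0.0858) but did without the third 24 h library (log2 1.12, adjusted p = 1.47e-04). In order of mean level, the 6 h and 24 h groups overlapped, as did the 24 h and 72 h groups.

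Bmp4 (chromosome 14, 46383520 to 46390669, minus strand) encodes a BMP made by endothelial and mesenchymal cells, among others. Its level was 10.97, 12.4 and 12.5 CPM in the sham libraries and 42.6, 27.3 and 29.1 CPM at 6 h, then 11.3, 11.1 and 16.7 CPM at 24 h. The 6 h libraries stood apart from every other library of the series, and the 24 h libraries overlapped those of sham and 1 h. Bmp4 rose 2.76-fold at 6 h (log2 1.46, SE 0.17, adjusted p = 1.31e-05), and without the first 6 h library it was still called, with a log2 change of 1.24. It fell from 6 h to 24 h (log2 -1.35, adjusted p = 3.71e-05), and its 24 h level did not pass against sham (log2 0.12, adjusted p = 0.608). By 72 h it stood at 8.80, 6.76 and 7.57 CPM, below every sham library, and was called lower (log2 -0.63, SE 0.17, adjusted p = 0.00368). That call depended on the scaling: with library totals in place of TMM it was -0.05 (adjusted p = 0.810). At 10 min the libraries held 7.91, 8.86 and 9.05 CPM, also all below sham, but the change did not pass (log2 -0.47, adjusted p = 0.561) unless only these groups were fitted (adjusted p = 0.0341).

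Bmp6 (chromosome 13, 38345107 to 38500302, plus strand) encodes the BMP by which liver endothelium sets hepcidin, the iron hormone. Of the 4 BMP ligands it had the highest level per length in every group. The sham libraries held 102, 136 and 118 CPM. At 6 h they held 106, 90.9 and 140 CPM, at 24 h 68.1, 56.0 and 47.2 CPM, and at 72 h 36.6, 29.9 and 34.0 CPM. The 6 h libraries overlapped sham, every 24 h library lay below every sham library, and every 72 h library lay below every 24 h library. Bmp6 fell 2.07-fold against sham at 24 h (log2 -1.05, SE 0.17, adjusted p = 1.50e-04) and 3.54-fold at 72 h (log2 -1.82, SE 0.18, adjusted p = 7.23e-08). The 72 h fall was called in all 28 alternatives, but its size varied, with log2 changes from -1.92 to -1.17. The step from 24 h to 72 h (log2 -0.77, adjusted p = 0.00120) was lost with library totals (log2 -0.37, adjusted p = 0.0812). At 10 min the libraries held 67.0, 87.0 and 91.6 CPM, all below sham, with a change that did not pass (log2 -0.53, adjusted p = 0.447). The exons of Bmp6 share 224 bases with Txndc5 on the opposite strand, and whether the counting used strand is not stated. Txndc5 went the other way, from a mean of 46.2 CPM in sham to 189 CPM at 72 h.

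Bmp7 (chromosome 2, 172868012 to 172940321, minus strand) encodes a BMP known from kidney development and as a counterweight to TGF-beta in fibrosis. It was scarce, with 8 to 65 counts per library, so its values carry more counting error. The level was 2.12, 1.09 and 1.60 CPM in sham, 0.561, 0.849 and 0.412 CPM at 24 h and 0.852, 0.365 and 0.509 CPM at 72 h. All 24 h and 72 h libraries lay below all sham libraries. Bmp7 fell 2.57-fold at 24 h (log2 -1.36, SE 0.40, adjusted p = 0.0102) and 2.78-fold at 72 h (log2 -1.47, SE 0.39, adjusted p = 0.00268). The 24 h call was lost without the first sham library (log2 -1.11, adjusted p = 0.0567), and the 72 h call with library totals (log2 -0.90, adjusted p = 0.0513).

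Gdf15 (chromosome 8, 70629393 to 70632456, minus strand) had the largest fold change of the 5 member ligands at each of the 3 later times. Its sham libraries held 1.11, 0.778 and 1.07 CPM, the 10 min libraries 1.183, 1.05 and 1.005 CPM and the 1 h libraries 1.497, 1.36 and 1.57 CPM. At 6 h they held 12.0, 9.09 and 22.4 CPM, at 24 h 19.1, 8.31 and 38.0 CPM, and at 72 h 17.98, 19.2 and 16.9 CPM. The lowest library from 6 h on was several times the highest before it, and the 6 h, 24 h and 72 h groups overlapped each other. Gdf15 rose 14.6-fold at 6 h (log2 3.87, SE 0.51, adjusted p = 9.65e-05), 21.8-fold at 24 h (log2 4.45, SE 0.51, adjusted p = 1.63e-05) and 18.1-fold at 72 h (log2 4.18, SE 0.51, adjusted p = 3.47e-06). Without the third 24 h library the log2 change at 24 h was 3.78. The step from 1 h to 6 h was called (log2 3.29, adjusted p = 3.42e-04), while 24 h against 6 h was not (log2 0.58, adjusted p = 0.296). The 72 h libraries were close together (SD 1.16 CPM, n = 3), while those of 24 h were spread widely (SD 15.0 CPM, n = 3).

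**Figure D2:**
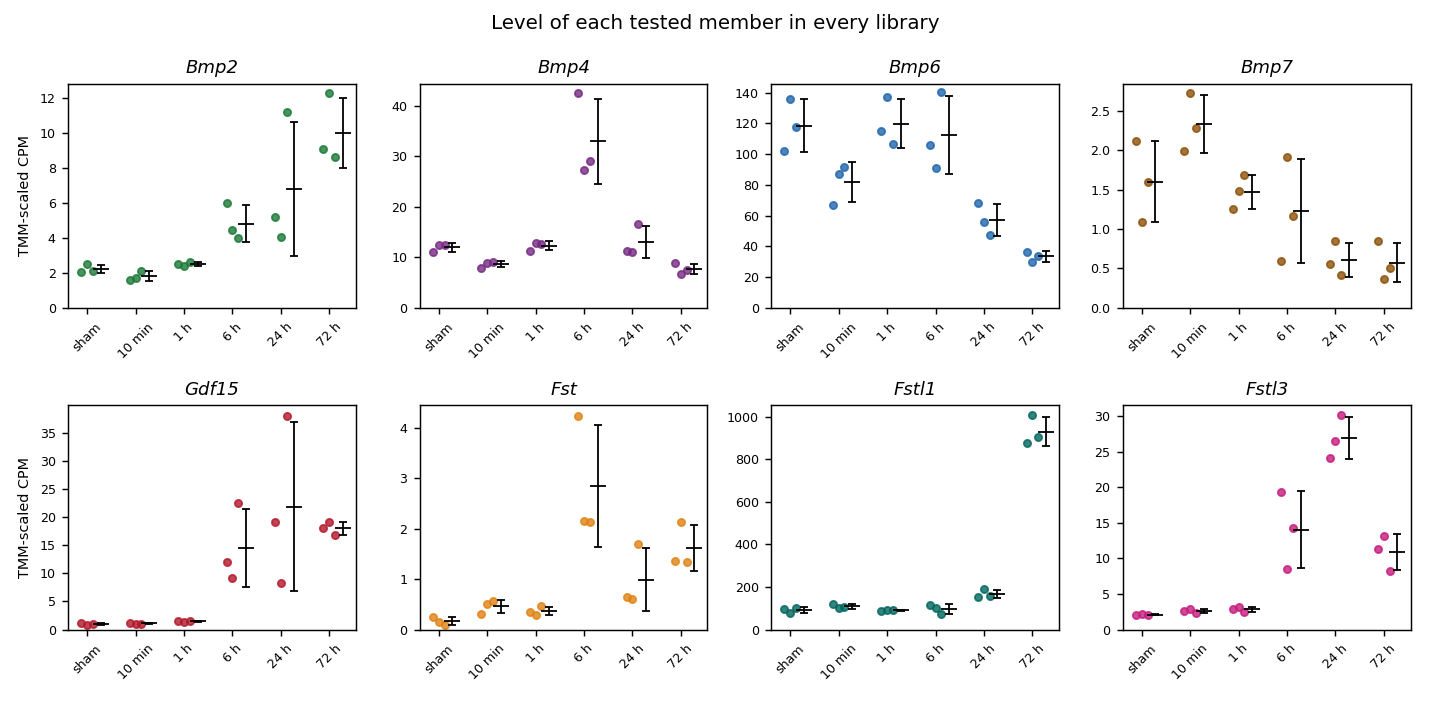
TMM-scaled CPM of each tested member (vertical axes, starting at 0 and differing between panels) in each of the 18 libraries (points), by group, with the mean and SD of 3 libraries as bars. The 6 h libraries of Bmp4 and the 72 h libraries of Fstl1 (879 to 1007 CPM) stand apart from the other groups, and the third 24 h library is the highest of its group for Bmp2, Bmp4, Gdf15, Fst and Fstl3.

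GDF15 is a known target of the integrated stress response and of p53, so 10 genes of each were set beside it. Of the stress response genes 2 rose at 1 h, 7 at 6 h and 6 at 24 h with none lower, and at 72 h 5 rose and 2 fell. Of all genes 0.294% were called at 1 h, 28.4% at 6 h, 43.8% at 24 h and 66.4% at 72 h, so the 7 of 10 called at 72 h are near the background. Atf3, a stress-induced repressor, was already called at 1 h, with a mean of 91.8 CPM against 3.15 in sham (log2 4.86, SE 0.52, adjusted p = 3.60e-04), when Gdf15 was at 1.48 ± 0.107 CPM (SD, n = 3). Ppp1r15a, a phosphatase subunit that reverses the response, was also called at 1 h (log2 1.39, adjusted p = 0.0378), a call lost in 14 of 28 alternatives. Atf4, its central transcription factor, was not (log2 0.06) but rose at 6 h (log2 1.3, adjusted p = 3.01e-05) and 24 h (log2 1.07). Nupr1, a stress-induced chromatin protein, followed a later course, with log2 0.72 at 6 h (a call lost without the first 6 h library, adjusted p = 0.0623), 1.12 at 24 h and 2.36 at 72 h. Of the p53 targets 1 rose at 1 h, 3 at 6 h, and 6 at both 24 h and 72 h, with 2 lower at each of the last times; the 3 of 10 called at 6 h are near the 28.4% of all genes. Btg2, an antiproliferative gene, was the one called at 1 h (log2 2.83, adjusted p = 4.31e-05). Bax, which opens the mitochondrial membrane, and Phlda3, an Akt inhibitor, were called at 24 h (log2 1.06 and 1.11) and 72 h (log2 1.21 and 1.84) but not at 6 h.

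Among 15 other BMP and GDF ligands 6 could be tested; 3 of them rose and 1 fell at 72 h, where 66.4% of all genes were called. Gdf6, a ligand of joint and skeletal patterning, averaged 1.22 CPM in sham, 3.12 CPM at 6 h and 6.03 CPM at 24 h, and rose to 19.2 CPM by 72 h (log2 3.97, SE 0.33, adjusted p = 1.34e-08 at 72 h). Gdf3, a ligand that can also inhibit BMPs, was near the floor in sham, and its 72 h mean of 2.82 CPM was at least 19.2-fold higher than 3 counts per sham library. Gdf11 fell at 6 h (log2 -0.79, adjusted p = 0.00521) and rose at 72 h (log2 0.95, adjusted p = 1.11e-04). Bmp10, the atrial BMP, was not tested: it had 355 counts in the first 6 h library and at most 1 in any other.

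Inhba and Inhbb, 2 of 3 activin and inhibin subunit genes tested and those whose products follistatin and Fstl3 bind, had larger log2 fold changes against sham than any of the 4 BMP genes at 6 h, 24 h and 72 h. Inhba, the subunit of activin A, was at a mean of 1.32 CPM in sham, held 32.2, 15.9 and 9.21 CPM at 6 h and 13.8, 12.8 and 48.8 CPM at 24 h, and averaged 18.5 CPM at 72 h. Its log2 fold change was 3.85 at 6 h (SE 0.64, adjusted p = 6.57e-04), 4.24 at 24 h (adjusted p = 1.75e-04) and 3.81 at 72 h (adjusted p = 1.05e-04). Without the first 6 h library it was 3.25 at 6 h, and without the third 24 h library 3.33 at 24 h. Inhbb, the subunit of activin B, held 135, 57.4 and 65.8 CPM at 6 h, 26.0, 13.6 and 76.5 CPM at 24 h, and averaged 23.0 CPM at 72 h, from 2.40 CPM in sham. Its log2 fold change was 5.16 at 6 h (SE 0.65, adjusted p = 1.03e-04), 4.0 at 24 h and 3.26 at 72 h, with 3.04 at 24 h without the third library of that time. Inha, whose product pairs with these subunits to make inhibins, was called lower at 24 h (log2 -0.77, adjusted p = 0.0223, lost in 6 of 28 alternatives) and 72 h (log2 -1.02, adjusted p = 0.00192), where library totals gave -0.44 (adjusted p = 0.148).

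**Figure D3:**
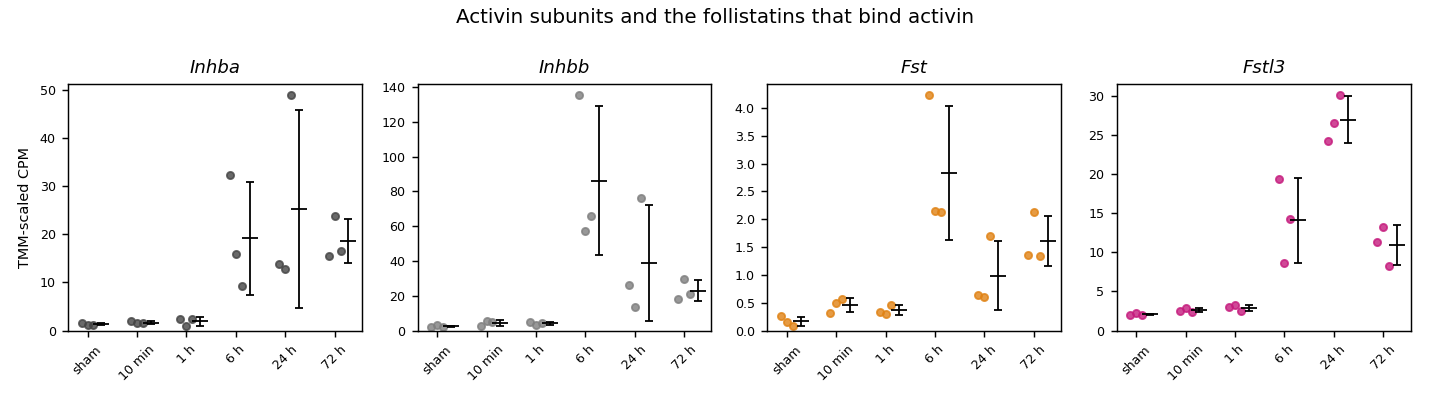
TMM-scaled CPM (vertical axes from 0, differing between panels) of the activin subunit genes Inhba and Inhbb and of Fst and Fstl3, whose products bind activin, in each library (points) by group, with mean and SD of 3 libraries. The first 6 h library is the highest of its group in all 4 panels and the third 24 h library of its own, with 48.8 CPM of Inhba and 76.5 CPM of Inhbb in the latter.

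The named receptors had small changes. Of 7 type I and type II receptors tested 1 rose at 6 h, 1 fell at 24 h, and 1 rose and 4 fell at 72 h, with a list median log2 change of -0.34 at 72 h. These counts are near or under the shares of all genes called, 28.4% at 6 h, 43.8% at 24 h and 66.4% at 72 h. Bmpr2, the BMP type II receptor mutated in familial pulmonary hypertension, rose from a mean of 89.5 CPM in sham to 129 CPM at 6 h (log2 0.53, SE 0.10, adjusted p = 8.41e-04). At 72 h it was called lower at 64.8 CPM (log2 -0.47) with TMM but was 0.12 with library totals. Acvr1, a type I receptor, was the one that rose at 72 h (log2 0.66, SE 0.10, adjusted p = 1.86e-05), while Acvr2a, a type II receptor shared with activins, was called lower (log2 -0.56) with TMM and was 0.02 with library totals. Of 7 co-receptors and membrane regulators 1 rose and 1 fell at 6 h, and 1 rose and 5 fell at 72 h, where 32.2% of all genes fell. Hemojuvelin, a BMP6 co-receptor listed under the older symbol Hfe2, fell from a mean of 208 CPM in sham to 130 CPM at 24 h (log2 -0.67, adjusted p = 0.00324) and 72.7 CPM at 72 h (log2 -1.51, SE 0.17, adjusted p = 3.23e-07). Neogenin (Neo1), which binds hemojuvelin, was called lower at 6 h (log2 -0.49, adjusted p = 0.0124) and 24 h (log2 -0.47, adjusted p = 0.0102, lost in 4 of 28 alternatives). At 72 h Neo1 was called lower (log2 -0.36, lost in 8 of 28 alternatives) with TMM but was 0.23 with library totals. Endoglin (Eng), the endothelial co-receptor, was called higher at 6 h (log2 0.31, adjusted p = 0.0458, lost in 18 of 28 alternatives, among them without the first 6 h library) and lower at 72 h (log2 -0.40), where library totals gave 0.18.

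Of 8 Smads and Smad ubiquitin ligases 4 rose at 6 h, 2 at 24 h and 1 at 72 h, when 2 fell. Of all genes 16.3% rose at 6 h, 23.7% at 24 h and 34.2% at 72 h. Smad1, which carries the BMP signal, rose from a mean of 16.4 CPM to 38.4 CPM at 6 h (log2 1.23, SE 0.14, adjusted p = 9.71e-06) and at 72 h (log2 0.76). It was also called at 24 h (log2 0.41, adjusted p = 0.0229), but not without the third 24 h library (log2 0.30, adjusted p = 0.121). The inhibitory Smad7 rose at 6 h (log2 1.23, SE 0.17, adjusted p = 6.50e-05), as did Smad6 (log2 0.69, SE 0.14, adjusted p = 0.00132). Neither passed against sham at 24 h (log2 0.29 and 0.06) or 72 h, where TMM gave -0.13 and -0.12. With library totals both were called higher at 72 h (log2 0.46 and 0.47, adjusted p = 0.0190 and 0.00725), and Smad7 also at 24 h (log2 0.48, adjusted p = 0.0242).

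Of 7 BMP target genes 1 was called higher at 1 h, 5 were at 6 h and 2 were at 24 h; by 72 h 3 had risen and 2 had fallen. The counts at 24 h and 72 h are near the background, where 23.7% of all genes rose at 24 h and 66.4% were called at 72 h, and at 6 h 16.3% rose. Id1, Id2 and Id3 encode proteins that block differentiation factors of the helix-loop-helix class. Id1 was the one called at 1 h (log2 0.62, SE 0.12, adjusted p = 0.0184, lost in 6 of 28 alternatives), was higher at 6 h (log2 0.52, adjusted p = 0.00297) and fell below sham at 72 h (log2 -0.98, adjusted p = 7.45e-07). Id3 rose at 6 h (log2 0.64, adjusted p = 2.36e-04) and 72 h (log2 0.62) with 0.04 at 24 h. Id2 rose at 6 h (log2 1.44), 24 h (log2 1.38) and 72 h (log2 2.36, SE 0.32, adjusted p = 9.10e-06). The 3 Id genes thus had different courses, and the time of highest Bmp4 was one at which all 3 were called higher. Id1 was already called at 1 h, when Bmp4 was near sham (log2 0.04). Id2 and Id3 were also called higher at 72 h, when Bmp4 was called lower with TMM (log2 -0.63). That Bmp4 call was lost with library totals (log2 -0.05, adjusted p = 0.810). A link between Bmp4 and the Id genes was not tested.

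Among the antagonists, Fst (chromosome 13, 114452290 to 114458951, minus strand) was close to the floor in sham, with 5, 3 and 2 counts or 0.253, 0.156 and 0.0888 CPM. At 6 h it reached 4.23, 2.15 and 2.13 CPM, at 24 h it was at 0.647, 0.601 and 1.70 CPM, and at 72 h at 1.36, 2.13 and 1.34 CPM. Every library from 6 h on was above every earlier one, and the third 24 h library overlapped the 72 h group. Fst rose at 6 h (log2 4.07, SE 0.50, adjusted p = 2.25e-05), 24 h (log2 2.51, SE 0.55, adjusted p = 0.00132) and 72 h (log2 3.26, SE 0.51, adjusted p = 1.82e-05), and with so few sham counts the size of these changes is uncertain. Without the third 24 h library the log2 change at 24 h was 1.90. It fell from 6 h to 24 h (log2 -1.56, SE 0.39, adjusted p = 0.00629), a call lost when only those groups were fitted (adjusted p = 0.0793). From 24 h to 72 h it did not pass (log2 0.75, adjusted p = 0.118) but did without the third 24 h library (log2 1.36, adjusted p = 0.00610).

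Fstl3 (chromosome 10, 79777272 to 79782630, plus strand) encodes a secreted activin and myostatin binder that lacks the heparin-binding stretch of follistatin. It held 2.02, 2.18 and 2.04 CPM in sham, 19.3, 8.56 and 14.3 CPM at 6 h, 24.2, 26.5 and 30.1 CPM at 24 h, and 11.3, 13.2 and 8.24 CPM at 72 h. The sham libraries were the tightest of the 6 groups (2.08 ± 0.0846 CPM, SD, n = 3), the 24 h group lay above all others, and the 6 h and 72 h groups overlapped. Fstl3 rose 6.71-fold at 6 h (log2 2.75, SE 0.25, adjusted p = 1.06e-06), 12.9-fold at 24 h (log2 3.69, SE 0.25, adjusted p = 4.60e-08) and 5.24-fold at 72 h (log2 2.39, SE 0.25, adjusted p = 1.17e-07). The rise from 6 h to 24 h was called (log2 0.94, adjusted p = 0.00320), but not when only those groups were fitted (adjusted p = 0.0689), and the fall from 24 h to 72 h was called (log2 -1.3, adjusted p = 5.28e-05). Its exons share 1157 bases with Prss57 on the opposite strand, which held at most 6 counts in any library.

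Fstl1 (chromosome 16, 37776873 to 37836514, plus strand) encodes a glycoprotein of stromal cells. Its sham libraries held 98.6, 77.0 and 101 CPM and its 6 h libraries 117, 99.4 and 70.9 CPM, which overlapped. At 24 h they held 153, 189 and 159 CPM and at 72 h 879, 1007 and 906 CPM, or 27863 to 33086 counts. Each of these groups lay above all earlier ones. Fstl1 rose 1.81-fold at 24 h (log2 0.86, SE 0.15, adjusted p = 2.12e-04) and 10.1-fold at 72 h (log2 3.33, SE 0.16, adjusted p = 1.01e-11), and the step between these times was 5.57-fold (log2 2.48, adjusted p = 6.79e-10). From 24 h to 72 h 1 of the 8 tested members, Fstl1, was called higher and 3 lower, while 24.4% of all genes rose and 26.1% fell. Bmp2 and Fst were also called higher in this step with library totals (adjusted p = 0.00402 and 0.0164), where the falls of Bmp4 and Bmp6 were lost.

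Grem1 (chromosome 2, 113746164 to 113758646, minus strand), the gene of gremlin, was not detectable at this depth. It had 1 count in the first 24 h library and 0 in the other 17. That is under the floor of 3 counts, so no change is given.

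Of 16 other secreted antagonists and modulators tested, out of 20 listed, 3 rose and 4 fell at 6 h, 3 rose and 7 fell at 24 h, and 5 rose and 5 fell at 72 h. Of all genes 28.4%, 43.8% and 66.4% were called at these times, and the count at 72 h is near its share. Bmper, which binds BMPs outside endothelial cells, rose at 72 h (log2 1.93, SE 0.20, adjusted p = 9.11e-08). Its call at 24 h (log2 0.56, adjusted p = 0.0295) was lost in 4 of 28 alternatives, among them without the second 24 h library (log2 0.26, adjusted p = 0.271). Bmp1, a protease that cuts chordin and procollagen and is not a BMP ligand, rose from a mean of 43.4 CPM in sham to 185 CPM at 72 h (log2 2.1, SE 0.15, adjusted p = 1.98e-09). Dand5, an antagonist of the DAN family, fell at 24 h (log2 -0.58, adjusted p = 0.00418) and 72 h (log2 -1.33, SE 0.15, adjusted p = 3.83e-07).

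Between neighbouring times the members moved in different steps. From 10 min to 1 h 0 of 8 were called (0.307% of all genes). From 1 h to 6 h 5 rose and none fell, against 24.5% of all genes, 14.5% higher and 10% lower. From 6 h to 24 h 2 rose (Fstl1 and Fstl3) and 3 fell (Bmp4, Bmp6 and Fst), against 27.8% of all genes, 14.2% higher and 13.7% lower. From 24 h to 72 h 1 rose and 3 fell, against 50.5% of all genes. Over the 5 comparisons with sham together, the F test called 8 of 8 members, and 78.4% of all genes. No gene other than Bmp4 and Fst among the members was called up against sham at 6 h and then down from 6 h to 24 h.

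Levels of different genes can be set side by side only per length, which the deposited FPKM, which divide by gene length and depth, allow. In sham the order of mean FPKM was Bmp6 at 28.1, Fstl1 at 17.4, Bmp4 at 4.98, Fstl3 at 0.789, Bmp2 at 0.577, Gdf15 at 0.494, Bmp7 at 0.370 and Fst at 0.0452. At 72 h it was Fstl1 at 264, Gdf15 at 13.5, Bmp6 at 11.9, Fstl3 at 6.20, Bmp4 at 4.82, Bmp2 at 3.92, Fst at 0.663 and Bmp7 at 0.198. Bmp6 thus went from the highest of the 8 to the third, and Gdf15 from the sixth to the second. Gdf15 and Bmp6 at 72 h (13.5 ± 0.724 and 11.9 ± 1.15 FPKM, SD, n = 3) lay close to each other.

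**Figure D4:**
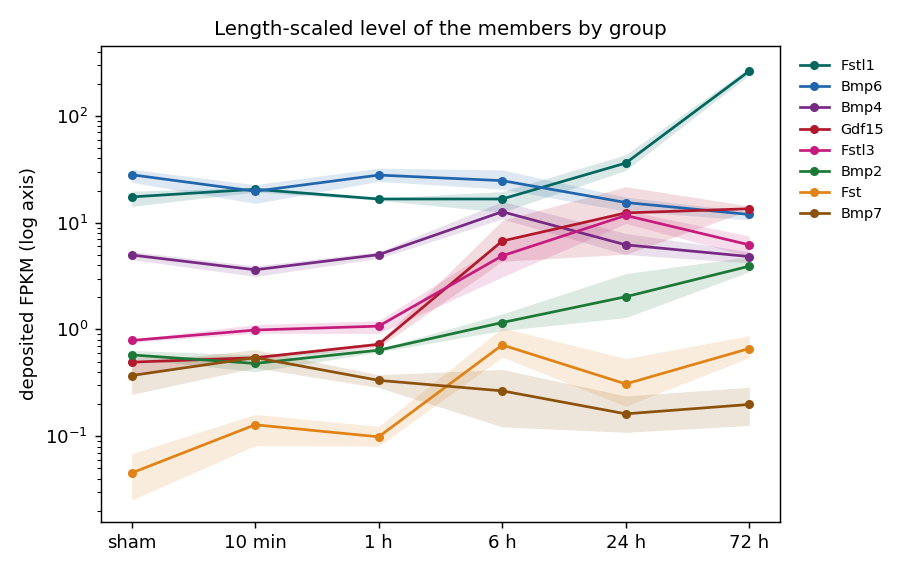
Deposited FPKM of the 8 tested members (vertical axis, log scale) by group, with lines through the means of 3 libraries and bands from the lowest to the highest library. Bmp6 is highest in sham at 28.1 FPKM and Fstl1 at 72 h at 264 FPKM.

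The cell types of the samples changed with time, and in whole tissue a smaller number of cells of a type and less RNA per cell cannot be told apart. The summed cardiomyocyte markers were 52552 to 63947 CPM at 6 h, 27097 to 40901 CPM at 24 h and 15821 to 21058 CPM at 72 h, falling over the times at which Bmp6 and Bmp7 were called lower. Cardiomyocyte markers were not alone in this. Mural markers (pericytes and smooth muscle) went from 1285 to 1314 CPM in sham to 592 to 819 CPM at 24 h and 530 to 632 CPM at 72 h. Endothelial markers went from 1215 to 1346 CPM in sham to 913 to 1127 CPM at 24 h and 746 to 967 CPM at 72 h. Fibroblast markers, at 681 to 717 CPM in sham and 502 to 670 CPM at 24 h, reached 4237 to 5320 CPM at 72 h. All 6 were called higher there, with a median log2 change of 1.27. The 5 myofibroblast markers reached 2247 to 2607 CPM from 117 to 177 CPM in sham. Fstl1 was highest at 72 h but was already called higher at 24 h. At 24 h 2 fibroblast markers were called higher and 3 lower, and 3 myofibroblast markers higher and 0 lower. Markers of monocytes and macrophages went from 248 to 281 CPM in sham to 3033 to 4014 CPM at 72 h. The part of cell composition in the members' changes was not tested.

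Endothelial markers were 1648, 1221 and 1389 CPM in the 6 h libraries, beside 1215 to 1346 CPM in sham, when Bmp4 was at its highest. Bmp4 had the same order in these libraries, with 42.6, 27.3 and 29.1 CPM. The 5 neutrophil markers rose from 2.31 to 3.58 CPM in sham to 733, 260 and 96.6 CPM in the 6 h libraries and 152, 35.1 and 652 CPM in the 24 h libraries. The library with most neutrophil signal had the most Bmp2, Bmp4, Fst and Fstl3 at 6 h and the most Bmp2, Bmp4, Gdf15, Fst and Fstl3 at 24 h. Gdf15 at 6 h did not follow this order, with its highest value in the library that had least. No gene of the 7 marker lists plotted by group was at 0 in all 3 libraries of a group.

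**Figure D5:**
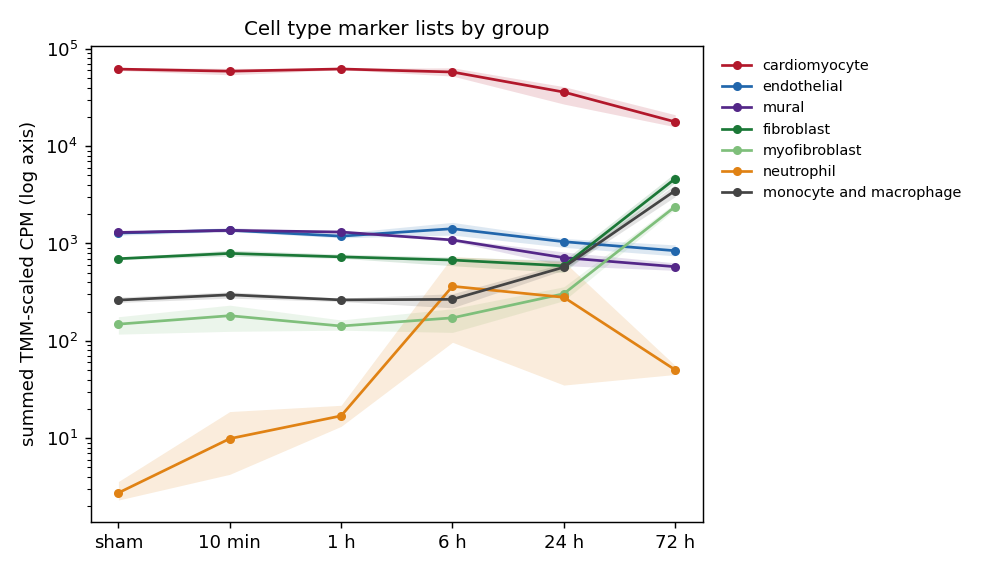
Summed TMM-scaled CPM of 7 cell type marker lists (vertical axis, log scale) by group, with lines through the mean of 3 libraries and bands from the lowest to the highest library. Cardiomyocyte markers end at 15821 to 21058 CPM at 72 h, and fibroblast, myofibroblast and macrophage markers reach 4237 to 5320, 2247 to 2607 and 3033 to 4014 CPM there.

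The genes with the most similar course over the 18 libraries are given as a description, from Pearson correlations of log2 CPM among about 11715 genes. The libraries share the 6 groups, so any gene that follows the same times will correlate. Nearest to Fstl1 were Col5a2 (r = 0.996), Bgn (r = 0.994) and Adamts2 (r = 0.994), which encode a collagen chain, a matrix proteoglycan and a procollagen protease. Among the nearest to Bmp6 were Cadm4 (r = 0.96), an adhesion gene, and Aldh2 (r = 0.96), a mitochondrial enzyme. Nearest to Fst was the activin gene Inhbb (r = 0.94), and to Bmp2 the complement receptor gene C5ar1 (r = 0.98). Nearest to Gdf15 were Efhd2, Vmp1 and Ptprf (r = 0.97 each), to Fstl3 Fbl, Nmrk2 and Eif6, to Bmp4 Kazn, Sirt1 and Tinagl1, and to Bmp7 Fam69b (r = 0.94). Between members, r was 0.93 for Gdf15 and Fstl3, 0.91 for Bmp2 and Gdf15, and -0.92 for Bmp6 and Fstl1.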

How the data were processed

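Poly(A) RNA was measured in 18 libraries, 1 per mouse. The authors deposited raw read counts per gene and FPKM values (fragments scaled by gene length and depth), and the submitters' processing notes name cutadapt 1.18, HISAT2 2.1.0, featureCounts and the build mm10; parameters and the use of strand are not given in the sources used here. The deposited FPKM columns of 6 h replicates 2 and 3 matched each other's counts, which leaves group means unchanged. Of 30583 genes, edgeR's default filter left 16311; edgeR 4.0.16 (R 4.3.3) with TMM scaling fitted all 6 groups in 1 quasi-likelihood model, with Benjamini-Hochberg adjustment over all tested genes and a threshold of 0.05. The fit was tested on simulated counts. Fold changes are those of the fit with edgeR's default prior count, and the log2 CPM of the correlations use a prior count of 2. Pathway genes named are up to 3 per list with the smallest adjusted F test p and any called at 10 min or 1 h; the likeness rule is the 3 highest correlations where genes averaged 50 counts or more. One gene that the likeness rule named is not reported here. Members and lists were chosen with earlier results of these data known. Gene positions are from GENCODE M21 and start sites from RefSeq, both GRCm38. Alternatives were RLE and library total scaling, other filters, DESeq2 1.42.0, limma 3.58.1 on log2(FPKM + 1) and log2(FPKM + 0.1), fits of only the 2 groups compared, a replicate block, and leaving out each library. Leaving out the first 6 h and the third 24 h library together was chosen after seeing the data. Counts of 3 or fewer are taken as the floor, which covers counting error only.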

Additional observations from a re-analysis of the deposited data

How the results depend on the processing

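Of 34 member changes called in 72 member comparisons, 25 were called in every alternative and 9 were lost in at least 1; 7 of the 38 not called gained a call in some, and no member's called change reversed. The 72 h calls of Bmp4 and Bmp7 against sham and of Bmp4 and Bmp6 against 24 h were lost with library totals and in both limma fits. Counts of members called are listed here only where they went from or to 0 or changed by a wide ratio. When only the 2 groups compared were fitted, they were 1 at 10 min against sham and 3 at 24 h against 6 h. At 1 h against 10 min such a fit gave 1, and leaving out any single library gave 0. It was 1 there again without the first 6 h and the third 24 h library. Smaller losses, such as those of Bmp4 and Bmp7 at 72 h against sham, also lowered counts and are not in this list. With the replicate block the count was 8 at 72 h, 7 at 24 h and 5 at 6 h; it changed no count of members called, and the replicate numbers did not pair the libraries, since 4 of 45 same-number pairs had deviations correlated above 0.1 and 9 of 18 libraries correlated best with their own number. Library totals moved the median log2 change of all genes to 0.20 at 24 h, with 75.5% of calls higher in place of 54.0%, and to 0.61 at 72 h, with 79.9% in place of 51.4%. At 72 h against sham, changes of some pathway genes reversed under library totals, limma on log2(FPKM + 1) and limma on log2(FPKM + 0.1). In that order the values were, for Bmpr2 (0.12, 0.10 and 0.12), Acvr2a (0.023, 0.019 and 0.027), Neo1 (0.23, 0.20 and 0.23), Eng (0.18, 0.18 and 0.18), Smad7 (0.46, 0.40 and 0.45) and Smad6 (0.47, 0.40 and 0.45). All 3 settings scale by depth without the TMM factors, so they are not separate checks of each other. Those factors were 1.36 to 1.43 at 72 h and 0.907 to 0.959 in sham. What lies behind the difference in the factors was not tested. For Grem1, and for Bmp7 and Fst under 1 filter each, an alternative gave no value. Depth limits Fst, Bmp7 and Grem1 most.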
